A study of Homo sapiens with 6 samples.

Results

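H3K27ac, the acetylation of lysine 27 on histone H3 that marks active promoters and enhancers, was compared between parental CCRF-CEM cells given camptothecin for 2 h and parental cells given vehicle. CCRF-CEM is a T lymphoblast line from a human leukemia. Both samples carry the wild-type label. The first received DMSO and the second 100 nM camptothecin for 2 h. These are 2 of the 6 libraries of the series, 1 per group, and they were chosen by their labels. The other libraries used here were parental cells after 4 h of 100 nM camptothecin, SLFN11 knockout cells after DMSO, and SLFN11 knockout cells after 100 nM camptothecin for 2 h. Whether the knockout is 1 clone is not given in the sources used here. The extraction text in the labels speaks of 4 h of treatment only, and the 2 h comes from the sample's own treatment label. With 1 library per group there is no spread between replicates, so every difference below is a difference between libraries and carries no p-value.

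Camptothecin traps topoisomerase I on DNA, and the trapped complexes stall or break replication forks in S phase. The checkpoint kinases ATR and CHEK1 then slow S phase and hold cells back from mitosis. SLFN11 is a factor that blocks stressed replication and sensitises cells to such drugs. Immediate early genes such as EGR1 and FOS are induced within minutes to hours of a stimulus, in part through serum response factor bound at CArG boxes. Genes for mitosis (G2/M genes) are known to be controlled through CCAAT boxes and the cell cycle genes homology region, whose core letters are TTTGAA, and genes for DNA replication (G1/S genes) through E2F sites.

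The promoters of 5 genes on which the results turn are printed first. Each window runs from 250 bases before to 30 bases after the transcription start, from RefSeq on GRCh38.p14, read 5′ to 3′ along the gene. EGR1 (chr5:138465229-138465508, plus strand) is shown because its start was stronger at 2 h in parental cells, with CArG boxes in capitals. PLK1 (chr16:23678639-23678918, plus strand), CENPA (chr2:26785806-26786085, plus strand) and KIF20A (chr5:138178862-138179141, plus strand) are shown because their starts were weaker at 2 h in both genotypes, with the CCAAT box, read on either strand, and the letters TTTGAA in capitals. GINS2 (chr16:85688925-85689204, minus strand) is shown because its start was stronger, with an E2F match in capitals.
EGR1: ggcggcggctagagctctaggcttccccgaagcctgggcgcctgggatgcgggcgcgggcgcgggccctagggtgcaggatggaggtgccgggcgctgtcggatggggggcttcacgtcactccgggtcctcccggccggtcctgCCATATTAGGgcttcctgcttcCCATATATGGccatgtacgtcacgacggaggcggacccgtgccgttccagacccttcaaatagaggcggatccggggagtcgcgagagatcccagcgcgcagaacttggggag
PLK1: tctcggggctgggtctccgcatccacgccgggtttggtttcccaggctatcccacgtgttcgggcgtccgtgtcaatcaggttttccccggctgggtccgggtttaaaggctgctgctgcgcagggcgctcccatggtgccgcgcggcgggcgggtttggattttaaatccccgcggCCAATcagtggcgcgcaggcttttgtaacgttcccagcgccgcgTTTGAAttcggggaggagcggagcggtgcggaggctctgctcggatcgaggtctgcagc
CENPA: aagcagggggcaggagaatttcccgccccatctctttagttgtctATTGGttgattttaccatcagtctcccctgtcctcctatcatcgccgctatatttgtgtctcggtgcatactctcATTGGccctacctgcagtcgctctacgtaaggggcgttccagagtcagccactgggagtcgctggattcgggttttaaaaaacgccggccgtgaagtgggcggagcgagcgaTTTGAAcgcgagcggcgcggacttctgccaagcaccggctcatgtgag
KIF20A: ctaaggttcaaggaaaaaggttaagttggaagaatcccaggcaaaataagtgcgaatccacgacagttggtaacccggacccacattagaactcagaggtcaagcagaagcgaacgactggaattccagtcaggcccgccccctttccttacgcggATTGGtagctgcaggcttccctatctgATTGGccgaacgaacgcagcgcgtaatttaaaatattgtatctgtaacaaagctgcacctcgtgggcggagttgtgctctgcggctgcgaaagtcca
GINS2: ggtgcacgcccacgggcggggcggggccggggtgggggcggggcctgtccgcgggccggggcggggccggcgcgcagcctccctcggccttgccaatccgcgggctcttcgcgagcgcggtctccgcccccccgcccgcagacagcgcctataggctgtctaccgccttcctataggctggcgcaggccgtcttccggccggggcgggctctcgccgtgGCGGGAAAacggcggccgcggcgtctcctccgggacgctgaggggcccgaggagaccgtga

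In EGR1 the CArG boxes lie at positions -105 to -96 and -83 to -74, with the first transcribed base as 0. PLK1 and CENPA hold TTTGAA at -29 to -24 and at -18 to -13. No TTTGAA lies in the KIF20A window, which holds CCAAT letters at 2 places. The E2F match of GINS2 lies at -31 to -24 and reads GCGGGAAA, the reverse complement of TTTCCCGC. All letters were searched on both strands in 1 window per gene. Capitals mark only the letters named above for each gene, so unmarked letters are not absent. The CENPA window also holds the E2F letters TTTCCCGC, and the GINS2 window holds CCAAT. The EGR1 window holds TTCAAA, the reverse complement of TTTGAA. A match is a description of the sequence and not evidence of a bound factor.

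To compare libraries of unequal depth, peaks on chromosomes 1 to 22 and X were ranked within each library by the deposited −log10 p. The 15000 strongest peaks of the vehicle and 2 h libraries were merged into 16657 regions. Each region was ranked from 1, the strongest, to 16657 in each library by the largest −log10 p of the peaks in it. A region is called stronger or weaker here when its rank moved by more than 3000 places, and higher or lower for a move of any size. At 2 h 1109 regions (6.66%) were stronger and 1134 (6.81%) were weaker, 13.5% in all. In any direction, 50.1% of regions ranked higher and 49.9% lower. Just inside the limit lies a region at chr6:44213867-44215825, whose rank went from 4018 to 7019. Just outside lies one at chr3:196917549-196917910, with ranks 13459 and 16458. Coordinates of peaks and regions are on hg19.

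Genes for mitosis ranked lower at 2 h in parental cells. PLK1, the polo-like kinase that drives mitotic entry, had 1 of the 10 deepest drops among regions that moved by every measure. Its start region (chr16:23689662-23691466) had −log10 p 16.4 under vehicle and 6.33 at 2 h, with folds over background of 4.66 and 3.87. CENPA, the histone variant of centromeres, had −log10 p 35.4 and 15.3 at its start (chr2:27008302-27010123), with folds of 6.68 and 5.25. Both genes ranked lower at 2 h than under vehicle, and this was seen before any list of G2/M genes was written. A list of 35 G2/M genes was then written from general knowledge, so it is not independent of these 2 genes.

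All 35 genes had a region within 1 kb of the start. At 2 h 31 of 35 ranked lower and 4 higher, beside 49.9% of all regions lower. The median change was -1073 places, beside 2 over all regions. Of the 35, 7 were weaker by over 3000 places and 0 stronger, beside 6.81% and 6.66% of all regions. Without PLK1 and CENPA, 29 of 33 ranked lower, with a median of -997 places, and 5 were weaker. These genes are among the strongest regions, where ranks moved little: 24 of the 35 had a mean rank of 1 to 4000, and 21 of those 24 ranked lower. Of those 24 only 1, CENPA, was weaker, beside 0.658% of all 3949 regions in that class. The median absolute move in the class was 447 places. The other weaker genes had mean ranks above 4000 and up to 12000, in classes where 3.37% and 7.77% of all regions were weaker. By fold 14 of the 24 ranked lower and 10 higher, beside 1648 and 2298 of the 3949 regions. The pattern was less marked by fold, where 24 of 35 ranked lower beside 50.8% of all regions, and 4 of 35 were weaker beside 10.4%. By −log10 p times covered length 31 of 35 ranked lower beside 45.7%, and 5 were weaker beside 3.18%.

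The 7 weaker G2/M genes act at different steps of division, and only PLK1 and KIF20A were weaker by every measure. By fold the calls at CENPE, PTTG1 and DLGAP5 were lost, with moves of -1018, -961 and -1786 places. By −log10 p times covered length those at CENPA, CENPF and PTTG1 were lost, with -2667, -2342 and -2377. PLK1 had rank 6757 under vehicle and 14141 at 2 h. CENPA had ranks 1092 and 6653. KIF20A, a kinesin of the central spindle, had ranks 5602 and 10769. Each of these lost more than 5000 places. CENPE, the kinetochore motor, had ranks 2796 and 7001. CENPF, an outer kinetochore protein, had ranks 4481 and 7796. DLGAP5, a spindle protein, had ranks 5816 and 9621. PTTG1, the securin that inhibits separase, had ranks 2772 and 6129. In the remaining 28 genes the change ran from -2922 places at KIF23, another kinesin of the central spindle, to 716 at HMMR, a spindle-associated protein. CCNB1, the mitotic cyclin, had ranks 4857 and 7592, and CDC20, the activator of the anaphase-promoting complex, 2132 and 4784. The other genes that ranked higher were TTK, FOXM1 and CDC25B, by 218, 44 and 59 places.

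**Figure D1:**
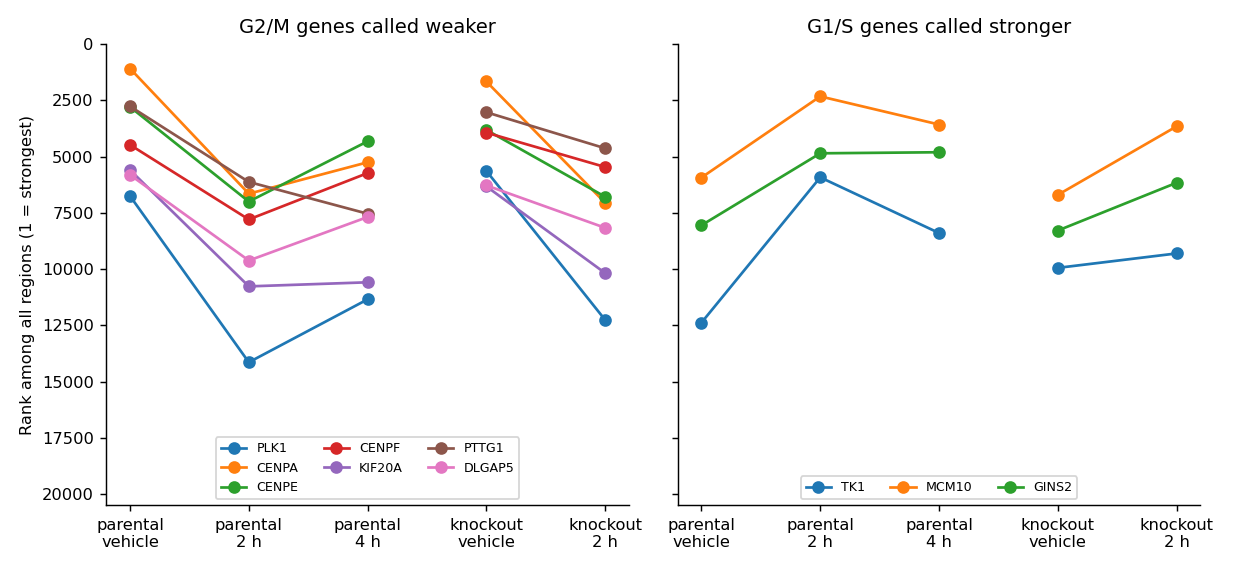
Rank among 16657 regions (vertical axis, 1 at the top as the strongest) in 5 libraries, 1 point per library, for the 7 G2/M genes called weaker (left) and the 3 G1/S genes called stronger (right) in parental cells at 2 h. Lines join libraries of 1 genotype. PLK1 goes from 6757 to 14141 in parental cells and from 5638 to 12256 in knockout cells.

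The knockout libraries share no sample with the parental pair and give a second look at the same genes. Between knockout vehicle and knockout 2 h, 32 of 35 G2/M genes ranked lower, beside 49.5% of all regions, and 50.5% of all regions ranked higher. The median change was -1090 places. In that pair 5 of 35 were weaker by over 3000 places, beside 2.32% of all regions, and 0 were stronger, beside 2.13%. PLK1 had knockout ranks 5638 and 12256, and CENPA 1665 and 7054. KIF20A had 6326 and 10176. Thus the 3 deepest drops of the parental list were also past 3000 places in knockout cells, where CCNB1 and CDC20 made up the 5. Of the 35 genes, 30 ranked lower in both genotypes, beside 4508 of all 16657 regions. The 2 h library had the lower background pileup of the parental pair (0.506 against 0.603 fragments per base) and the higher one of the knockout pair (0.715 against 0.699). The part of depth in these ranks was not tested. In bulk libraries fewer cells with the mark and less mark per cell cannot be told apart.

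Genes for DNA replication ranked higher. TK1, thymidine kinase, lay in the 7th most raised of the regions that moved by every measure, and a list of 26 G1/S genes was written after it was seen. Of these, 24 could be placed and all 24 had a region at the start. At 2 h 23 of 24 ranked higher and 1 lower, beside 50.1% of all regions higher. The median change was 738 places, or 736 over the 23 genes other than TK1. By over 3000 places 3 were stronger and 0 weaker, beside 6.66% and 6.81% of all regions. By fold 21 of 24 ranked higher beside 49.1%, and 2 were stronger beside 10.8%. By −log10 p times covered length 24 of 24 ranked higher beside 54.2%, and 2 were stronger beside 1.79%. In knockout cells 20 of 24 ranked higher by −log10 p, beside 50.5% of all regions, with a median of 545.5 places. The rise was not seen by fold in that pair. The median ratio of fold, 2 h over vehicle, was 0.997 in knockout cells, beside 1.005 over all regions. In parental cells it was 1.074 beside 1.029. By −log10 p 1 was stronger in knockout cells, beside 2.13% of all regions. In both genotypes 20 genes ranked higher, beside 4608 of all 16657 regions. In parental cells the change ran from -244 places at CHAF1B, a subunit of a histone chaperone, to 6453 at TK1.

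TK1 and AFMID start within 1 region (chr17:76182553-76183928), so the signal cannot be split between them. Its rank was 12378 under vehicle, 5925 at 2 h, 9947 in knockout vehicle and 9306 in knockout 2 h. Its fold was 3.76 under vehicle and 5.73 at 2 h. The move was thus large in parental cells and 641 places in knockout cells, a difference that was not tested. MCM10, a factor that starts replication forks, had ranks 5933 and 2328, and in knockout cells 6705 and 3663. GINS2, a subunit of the replicative helicase, had ranks 8054 and 4857, and in knockout cells 8290 and 6168. Both ranked higher at 2 h in each genotype. Both calls were lost by the other measures, with moves of 1322 and 2161 places at MCM10 and 2601 and 2826 at GINS2, by fold and by −log10 p times covered length. TK1 was the only G1/S gene called by every measure.

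The list of replication stress genes, which names the drug target and the checkpoint, held both kinds of gene. None of its 16 genes was stronger or weaker, beside 6.66% and 6.81% of all regions, and 9 ranked higher and 7 lower. Their median rank under vehicle was 2337.5. Among all regions of mean rank 1 to 4000 only 0.405% were stronger and 0.658% weaker, so few calls could be made in such a list. The highest moves were at replication genes. MCM4, a helicase subunit, went from 5649 to 3354, CDC45, another part of that helicase, from 4997 to 2978, and CDT1, a licensing factor, from 9876 to 8148. At MCM3 and RPA1, also genes of replication, the moves were only 57 and 24 places. The largest falls were -1446 places at TDP1 and -785 at WEE1. TOP1, which encodes the enzyme that camptothecin traps, had ranks 886 and 1014. SLFN11 had ranks 2433 and 2933 in parental cells. In knockout vehicle its start still ranked 1235, so the mark at the promoter does not report the knockout. Histone genes stood in 26 of 29 cases in a region, 18 distinct regions in all. Of these 18, 7 ranked higher and 11 lower, and none moved by over 3000 places, beside 13.5% of all regions.

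**Figure D2:**
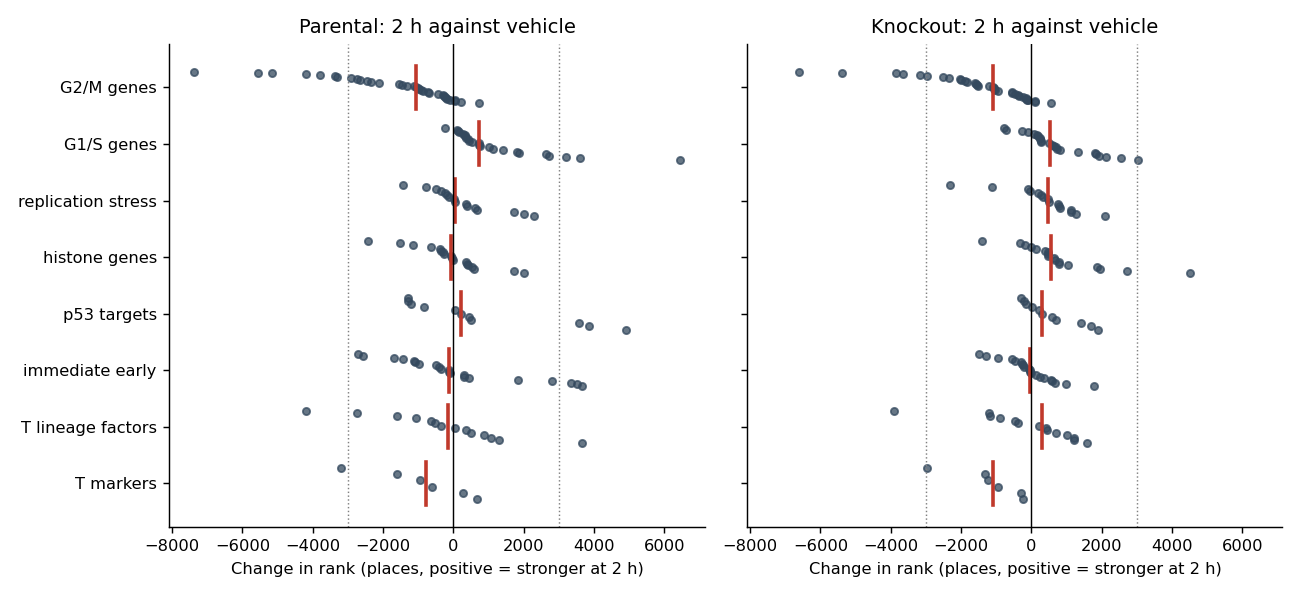
Change in rank from vehicle to 2 h (horizontal axis, places, positive means stronger at 2 h) for each region at the start of a listed gene, in parental cells (left) and knockout cells (right). Each point is 1 region, red bars are medians and dotted lines mark 3000 places. G2/M genes lie mostly below 0 and G1/S genes mostly above 0 in both panels.

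At 4 h, compared with the same vehicle library, 31 of 35 G2/M genes ranked lower, beside 48.9% of all regions, with a median of -810 places. Of the G1/S genes, 23 of 24 ranked higher, beside 51% of all regions, with a median of 517.5 places. The 2 h and 4 h values share the vehicle library, so they are not independent of each other. PLK1 had rank 11346 and CENPA rank 5256 at 4 h, both between vehicle and 2 h.

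The letters known from such promoters were counted in the RefSeq windows, with 1 window per gene. TTTGAA was found in 16 of the 28 matched G2/M genes and in 1 of the 21 matched G1/S genes, beside 14.7% of all 27303 promoters. CCAAT was found in 22 of 28 and 14 of 21, beside 34.7%. An E2F match (TTTCCCGC, TTTCGCGC, TTTGCCGC or TTTGGCGC) was found in 3 of 28 and 9 of 21, beside 3.15%. Within the G2/M list the rank change was not larger with the letters TTTGAA. The median was -966 places in the 16 genes that held them and -2229 in the 12 that did not. Rank moves depend on the strength of a region, and these groups were not matched for strength. A role of the letters was not tested.

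Immediate early genes, which the title of the series names, were examined within 1 kb of their starts. Of 28 genes, 21 had a region there, 3 were stronger and 0 weaker, beside 6.66% and 6.81% of all regions. In all 8 ranked higher and 13 lower, with a median of -125 places. The list as a whole thus did not move in 1 direction. In knockout cells none of the 21 moved by over 3000 places, with changes from -1475 to 1797. Only 2.13% of all regions were stronger and 2.32% weaker in that pair, so none of 21 is close to those shares.

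EGR1, a zinc finger transcription factor, was the immediate early gene whose call was made by every measure. Its region (chr5:137799459-137801095) runs from -1.72 to -0.086 kb relative to the start. The −log10 p was 15.9 under vehicle, 22.9 at 2 h and 25.6 at 4 h. The fold was 4.12 under vehicle and 4.96 at 2 h. In ranks this was 7011, 3497 and 3499. Knockout cells had ranks 5112 under vehicle and 5566 at 2 h, so the parental library under vehicle was the lowest of the 5. A second region about 26 kb beyond the start (chr5:137827563-137828736) had rank 14996 under vehicle and 9355 at 2 h, with folds of 4.59 and 6.01, and rank 14865 at 4 h. It lies between EGR1 and ETF1, and was singled out after its value was seen. The region 5.55 kb upstream of EGR1 had ranks 13178 and 15288. CArG letters as in the EGR1 promoter were found in 1 of the 19 matched immediate early promoters and in 1.23% of all promoters.

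**Figure D3:**
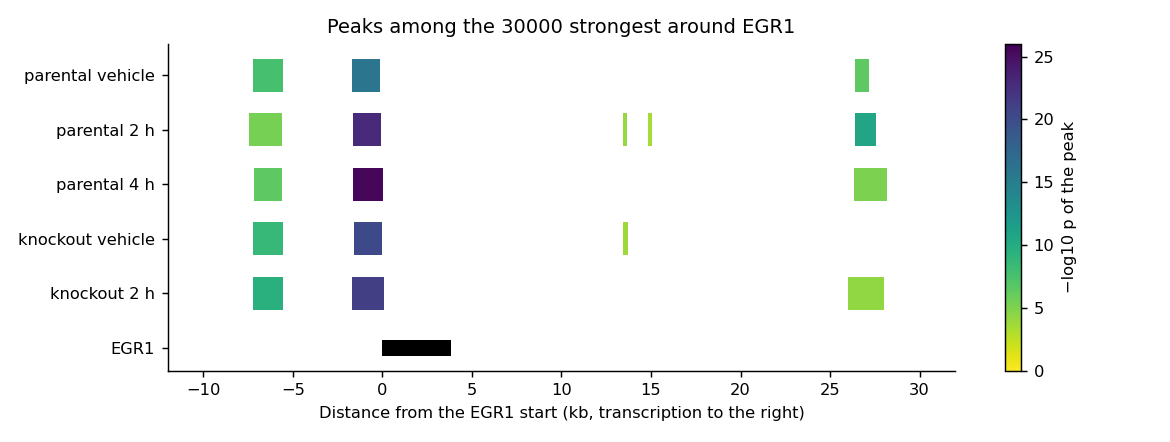
Peaks among the 30000 strongest of each library around EGR1, by distance from its start in kb (transcription to the right). Each row is 1 library, bars are peaks and darker bars have a larger −log10 p, and the black bar is the gene. The peak at the start is darker at 2 h and 4 h than under vehicle in parental cells, and the peak about 26 kb beyond it is darkest at 2 h.

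FOSB, a partner of JUN in the AP-1 factor, had rank 15475 under vehicle and 11818 at 2 h. Its region runs from 0.841 to 1.91 kb beyond the start and does not cover the start itself. In knockout cells it had 14545 and 12748. The region over IER2, a nuclear immediate early protein, had ranks 14269 and 10915, and 13807 and 13801 in knockout cells. That region is 6391 bp wide, and the strongest peak within 1 kb of the IER2 start stood at place 14275 under vehicle and 14115 at 2 h among all peaks. The call at IER2 thus came from a peak further along the region. A region about 10 kb before IER2 was weaker, with ranks 3617 and 8432, and moved by 3085 places the other way in knockout cells. Neither was called by fold alone, where FOSB moved by 770 places and IER2 by 70. DUSP1, a phosphatase that switches off MAP kinases, had ranks 15480 and 12673, just under the limit. JUNB and IER5 moved the other way, from 4260 to 6816 and from 7315 to 10017. JUN, which encodes the core AP-1 subunit, had ranks 8601 and 8163.

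The 7 immediate early genes without a region had no peak among the 15000 strongest at the start. FOS had its strongest deposited peak at place 43389 under vehicle and 30504 at 2 h, and at 20665 at 4 h. In knockout cells FOS stood at 23313 under vehicle and 24062 at 2 h. FOSL1 stood at 123108 and 41028, EGR2 at 20245 and 15040. EGR3 had a peak at 15173 under vehicle, and no deposited peak lay within 1 kb of its start at 2 h. A peak was present there at 4 h, at 13780, and in knockout vehicle and 2 h, at 16193 and 12926. In the parental vehicle and 2 h libraries ATF3 and DUSP5 had none, and CCN1 had 1 at 2 h only, at 116628. All peaks of these genes in the parental vehicle and 2 h libraries lie outside the 15000 strongest and are weak.

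Of 16 targets of p53, the transcription factor of the DNA damage response, 11 had a region, 3 were stronger and 0 weaker, beside 6.66% and 6.81% of all regions. XPC, a sensor of damaged DNA, had rank 8256 under vehicle and 3350 at 2 h, and folds of 6.34 and 8.93. SESN2, a stress-induced regulator of metabolism, had ranks 12962 and 9094, and TP53I3, an oxidoreductase, 13877 and 10305. In knockout cells these 3 moved by 1423, -198 and 600 places. None of the 3 was called by every measure. XPC moved by 2667 places by fold and 2390 by −log10 p times covered length, and by the latter SESN2 moved by 2237 and TP53I3 by -307. MDM2, which encodes the ligase that degrades p53, had ranks 2199 and 1686. The peak of CDKN1A, the CDK inhibitor p21, stood at 22953 under vehicle and 167802 at 2 h. Both lie outside the 15000 strongest, and only the vehicle peak is among the 30000 strongest.

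T cell markers checked the label. Of 8 placed genes, 7 had a region at the start, among them CD3D, CD3E, CD3G, CD5, CD7 and LCK. None of the 9 myeloid, erythroid, epithelial or liver markers had one, and of 3 placed B cell markers only CD79A did. Of the 6 distinct regions of T cell markers, 4 ranked lower, 2 higher (LCK and PTCRA), and 1 was weaker. That 1, at CD3E, part of the T cell receptor complex, had ranks 6135 and 9326, and 3818 and 6779 in knockout cells. Its call was lost by fold (-2020.5 places) and by −log10 p times covered length (-2371). Among factors of the T lineage and T cell leukemia, 1 of 14 with a region was stronger and 1 weaker, close to the 6.66% and 6.81% of all regions. STIL, a centriole gene that is fused to TAL1 in some T cell leukemias, had ranks 11219 and 7555, and 8470 and 9678 in knockout cells. RAG1, a recombinase of antigen receptor genes, had ranks 2617 and 6809 in a region 0.954 kb into the gene, while a narrow region over its start had ranks 16286 and 11351. In knockout cells the first of these had ranks 3035 and 1459. The calls at STIL and at this RAG1 region held by fold, with moves of 4474 and -3117 places. By −log10 p times covered length both were lost, with 2749 and -1760. The start of TCF7 had ranks 12916 and 11833, MYB 1597 and 1249, and NOTCH1 5594 and 6107.

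Among single places, 47 regions (0.282%) were stronger and 107 (0.642%) weaker by −log10 p, by fold and by −log10 p summed over covered length. The 10 largest rises among the 47 had ranks of 11454 to 16639.5 under vehicle and 5709 to 10814.5 at 2 h. The largest was in the body of PRKG1 (chr10:53993093-53993698), with ranks 16002 and 7970 and folds of 3.44 and 7.65. It is 606 bp wide. The next was between SOX8 and SSTR5 (chr16:1075188-1075788), with ranks 16368 and 8354. Others covered the start of NBEAL1, lay 0.089 kb before the start of RPS6KL1, and lay in the bodies of F13A1 and ETFBKMT. At the F13A1 region (chr6:6261745-6262499) the vehicle library had no deposited peak, and the fold at 2 h was 5.90. 1 lies 3.66 kb before XYLT1. The regions near FRG2C and at HERC2P2 lie in duplicated sequence, so reads there may come from other copies.

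The 10 deepest drops had ranks of 3828 to 8386 under vehicle and 11352 to 16541 at 2 h. Such starting ranks follow from choosing the largest moves, since a deep drop must start high and a large rise low. By every measure, the median mean rank was 12247 over the 47 stronger regions and 12685 over the 107 weaker ones. The deepest drop was in the body of TCF12, an E protein of T cell development (chr15:57224639-57225099). It had ranks 5210 and 15669 and folds of 9.91 and 3.90. In knockout cells its ranks were 7440 and 14039, so TCF12 and PLK1 were low at 2 h in both genotypes. The OR10T2 region (chr1:158368288-158369155) had ranks 8091 and 16541, and 6391 and 11139 in knockout cells. Other drops lay in the bodies of ZFYVE28, LRRFIP1 and DLG5, before UMODL1, between LOXL1 and STOML1, between WDR1 and ZNF518B, and beyond CD83. In knockout cells these 7 moved by -2512 to 1574 places.

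Over all regions, movement in knockout cells was compared as a share of each set. Of the 1134 regions weaker in parental cells, 92 (8.11%) were weaker in knockout cells and 46 (4.06%) stronger, with a median change of -353 places. Of the 1109 stronger regions, 42 (3.79%) were stronger in knockout cells and 46 (4.15%) weaker, with a median of 123, beside 9 over all regions. The background in the knockout pair, over the same 16657 regions, was 2.13% stronger and 2.32% weaker. These 92 and 42 are 92 of the 387 and 42 of the 354 regions called in knockout cells. The weaker set thus held more regions that moved the same way in knockout cells than the opposite way, and the stronger set did not. Ordered by the smaller of both moves, PLK1, TCF12 and a region in the body of PPP2R5C led those weaker in both, and CENPA was the sixth. Those stronger in both included regions within RUNX1 (chr21:36305767-36307272, ranks 14177 and 6710) and at the start of CPPED1 (chr16:12896161-12898001, ranks 9074 and 3430). By −log10 p times covered length RUNX1 moved by 113 places and CPPED1 by -1307, the other way. The length covered at CPPED1 was 1841 bp under vehicle and 845 bp at 2 h.

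The share that moved depended on strength. Among regions with a mean rank of 1 to 4000, 0.405% were stronger and 0.658% weaker. The shares were 3.20% and 3.37% for mean ranks above 4000 and up to 8000, 7.16% and 7.77% up to 12000, and 14.2% and 13.8% beyond. The median absolute move grew from 447 to 979, 1310 and 2108 places over the 4 classes. Part of this is set by construction, since a region of mean rank below 1500 cannot move by over 3000 places. A given number of places also spans more −log10 p among strong peaks, from 36.0 to 20.2 between ranks 1000 and 5000 under vehicle and from 11.1 to 6.42 between 10000 and 15000. For other pairs of libraries, regions were built anew from each pair. The 13.5% called between vehicle and 2 h compares with 7.53% of 16152 regions between knockout vehicle and knockout 2 h. It was 9.78% between parental 2 h and 4 h, 12.1% between vehicle and 4 h, and 12.5% between the vehicle libraries of both genotypes. The other pairs of a parental with a knockout library, leaving out knockout 4 h, had 15.1% to 16.6%.

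The calls also differed by width. Of regions under 500 bp, 22.7% were stronger and 15.7% weaker. At 1000 to 2000 bp the shares were 3.89% and 4.88%, and at 2000 to 4000 bp 3.03% and 4.69%. Among the 203 regions of 4000 bp or more, 11 were stronger and 5 weaker. Narrow regions are also weak ones, with a median mean rank of 14471 under 500 bp and 6549 at 1000 to 2000 bp. Regions stronger at 2 h had a median width of 857 bp and lay a median of 43.8 kb from the next region. Weaker ones had 1011 bp and 20.4 kb, and all regions 1383 bp and 27.3 kb. In regions built anew for the knockout pair, those stronger at 2 h had 1092 bp and 21.1 kb, and weaker ones 940 bp and 29.8 kb. Leaving out knockout 4 h, regions stronger in the library of lower background pileup lay further apart in nearly every pair. The exception was the vehicle libraries, with 25.7 kb for those stronger in parental and 30.1 kb in knockout cells. The part of depth in these values was not tested.

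**Figure D4:**
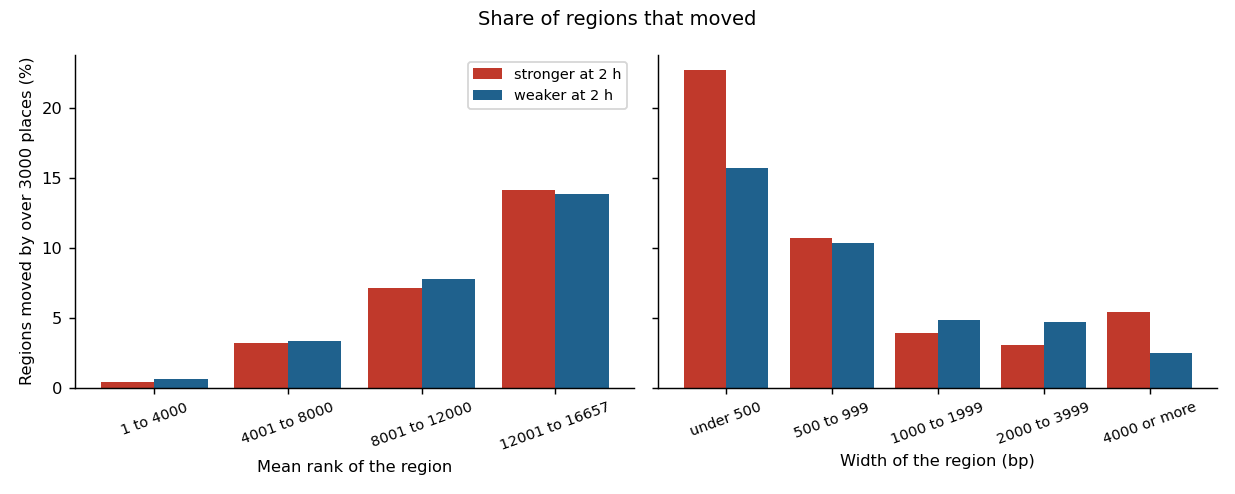
Percentage of regions that moved by over 3000 places between vehicle and 2 h (vertical axis), by mean rank (left) and by width in bp (right). Red bars are stronger and blue bars weaker at 2 h. The share is 0.405% and 0.658% in the strongest class, where regions of mean rank below 1500 cannot be called, and 14.2% and 13.8% in the weakest.

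Peaks were narrower at 2 h. In the 30000 strongest peaks of each library, the median width was 1101 bp under vehicle (quartiles 507 and 1647) and 938 bp at 2 h (424 and 1481). Peaks of 4000 bp or more numbered 232 and 140, and peaks under 500 bp 7411 and 9175. The sequence covered was 36.3 Mb and 32.1 Mb. The median width at 2 h was smaller in each class of strength. It was 1312 bp against 1400.5 bp in the 5000 strongest, 989 against 1261 bp in the 5000 peaks up to rank 15000, and 432 against 479 bp in the 10000 up to rank 30000. The largest difference among the 5 classes lay in the 5000 up to rank 20000, with 592 against 897 bp.

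**Figure D5:**
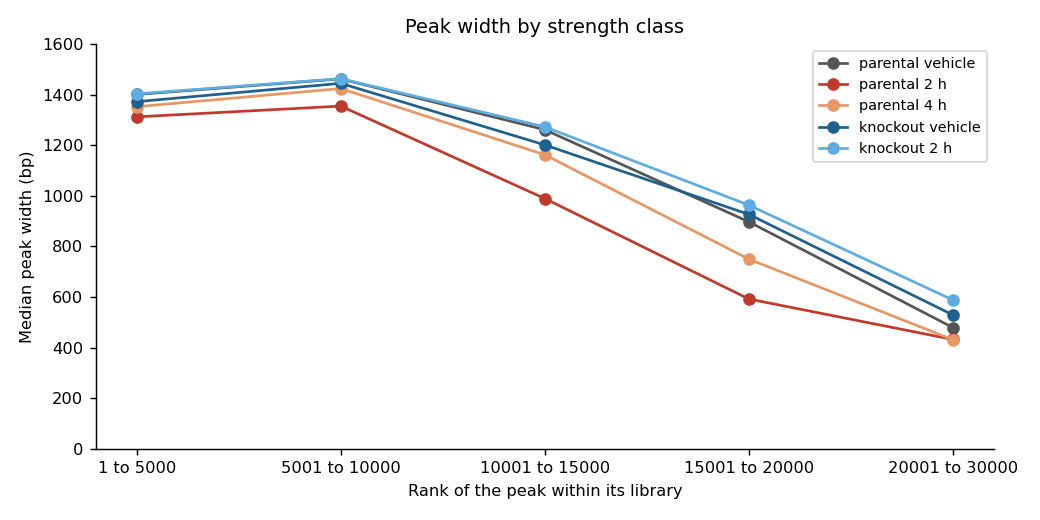
Median peak width in bp (vertical axis) by rank of the peak within its library (horizontal axis, 1 is the strongest) in 5 libraries, 1 line each. The 2 h parental line is the lowest in the first 4 classes, and in the last its 432 bp lies beside the 431 bp of 4 h.

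The same peaks were also compared directly. Of the 15000 strongest vehicle peaks, 14762 met exactly 1 peak at 2 h, and 64.7% of those were narrower there, with a median ratio of 0.973. In knockout cells 41.2% were narrower at 2 h, with a ratio of 1.01. Of the vehicle peaks, 219 met 2 or more peaks at 2 h, while 29 of the 15000 strongest 2 h peaks met 2 or more under vehicle. In knockout cells these counts were 137 and 92. Over 16126 regions with 1 peak in each library, the median width was 1327 bp under vehicle, 1248 at 2 h, 1310 at 4 h, 1340 in knockout vehicle and 1365 in knockout 2 h. The background pileup, a measure of depth, was 0.603, 0.506, 0.570, 0.699 and 0.715 fragments per base in that order. Width and depth thus had the same order in all 5 libraries, and the part of depth in the width was not tested.

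Most strong peaks were found in both libraries. Of the 30000 strongest vehicle peaks, 71.6% (Wilson 95% interval 71.1 to 72.1) overlapped one of the 30000 strongest at 2 h, and 72.1% (71.6 to 72.6) in the other direction. All 5000 strongest were shared in both directions. In the 5000 peaks up to rank 15000 the share was 94.9% of vehicle peaks and 92.5% of 2 h peaks, and in the 10000 up to rank 30000 it was 33.3% and 37.5%. The intervals cover counting error over peaks only. Against all deposited peaks of the other library, 94.0% and 93.5% were met. Unshared peaks were narrow, with medians of 428.5 bp under vehicle and 361 bp at 2 h. In knockout cells 77.8% of vehicle peaks were shared with 2 h.

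In windows of 10 kb, the 5 largest losses of covered length lay at MYO1A, UROC1, EPHB6, at GTF3C5 and CEL, and at UBASH3B. MYO1A (chr12:57420001-57430000) had 4945 bp covered under vehicle and 0 at 2 h within the 30000 strongest peaks. Counting all deposited peaks, the window had 4945 and 4143 bp. EPHB6 (chr7:142560001-142570000) had 4754 and 0 bp, or 4754 and 4887 bp over all peaks. These changes thus came from broad weak peaks whose rank crossed 30000. UBASH3B, a phosphatase of T cell receptor signalling, differed by all peaks as well, with 5588 and 2878 bp. The largest gain lay at chr5:17580001-17590000, with 0 and 3841 bp, but 5040 and 4214 bp over all peaks. The window between MAPK14 and MAPK13 (chr6:36080001-36090000) had 647 and 3829 bp, and 3082 and 3829 bp over all peaks. The window between PLXND1 and TMCC1 had 0 and 3156 bp, and 2356 and 3156 bp over all peaks. The other 2 gains lay on chromosome 8, at 86740001 with 0 and 3275 bp and at 86560001 with 531 and 3693 bp. Over all peaks these had 3458 and 3556 bp, and 3569 and 3693 bp. Their widest peaks at 2 h were of like width, 3036 and 3060 bp. Whether these windows lie in duplicated sequence was not tested, so they may not be separate gains.

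By chromosome, the shares of stronger and weaker regions differed most on chromosome 7, where 9.23% of 802 regions were stronger and 4.49% weaker. In the knockout pair 15 of them were stronger and 13 weaker. On chromosome 19, 5.97% were stronger and 3.54% weaker, with a median change of 210 places and of 83 in knockout cells. On chromosome 17 the shares were 5.73% and 3.57%, and on chromosome 21 5.41% and 9.01%.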

How the data were processed

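H3K27ac ChIP-seq peaks of 6 libraries, 1 per group, were used as deposited. Per the submitters' processing notes, the build was hg19 and the tools included MACS2 2.1.2 and BWA 0.7.17, besides Picard 2.9.2, SAMtools 1.8, Trimmomatic 0.39 and Trim Galore 0.6.2. Each library has its own deposited list of broad peaks, so calling was per library. Each peak has the authors' deposited score, its fold over background (a ratio), its −log10 p and its −log10 q. These are the authors' values and were used only to rank and describe peaks. The labels name no caller settings, and all deposited peaks had p of 0.05 or less. Reads were not analysed here, so p-values between groups were not computed, and depth was read from the background pileup solved from fold and −log10 p.

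Lists held 174843 (vehicle) and 180754 (2 h) peaks, with 3130 and 3400 outside chromosomes 1 to 22 and X left out. The 30000 strongest peaks by −log10 p were compared by overlap of at least 1 bp. Regions and ranks are as given above. The knockout 4 h list, with a background of 0.168 fragments per base, was not compared here. Steps were tested on simulated lists with Python 3.11.15, pandas 2.3.3, NumPy 2.4.6 and SciPy 1.17.1.

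An hg19 annotation was not used here. Gene positions on hg19 were written by hand from general knowledge. They were kept where the distance between hg19 and RefSeq GRCh38.p14 coordinates agreed at both ends of the gene within 1000 bp, or with a gene within 20 Mb by 500 bp. Of 241 genes 234 were kept. No coordinate was converted, and exons, introns and UTRs were not assigned. A gene's region is the best ranked one within 1 kb of its start, and it may extend further.

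Named are listed genes in called regions, the 10 largest rises and drops called by every measure, and the 5 largest gains and losses over 10 kb windows. Other genes named were chosen after their values were seen. The members and gene lists were chosen with earlier results of these data known, and the G2/M and G1/S lists after PLK1, CENPA and TK1 were seen. Alternatives were ranking by fold or by −log10 p summed over covered length, other list lengths, rank limits, overlaps and distances to the start.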

Additional observations from a re-analysis of the deposited data

Results flagged for a closer look

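The region just beyond FRG2C (chr3:75718012-75719795) moved in opposite directions in the 2 genotypes. Its rank went from 14899 to 7561 in parental cells and from 9648 to 15054 in knockout cells, a knockout change of -5406 places. With 1 library per group this difference was not tested, and the region lies in duplicated sequence.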

How the results depend on the processing

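The counts of stronger and weaker regions depended on the choice of measure. They were 1799 and 1738 by fold, 298 and 529 by −log10 p times covered length, 2389 and 2329 with a limit of 2000 places, 172 and 237 with 5000, and 10986 and 11559 of 38334 regions from 30000 peaks per library. The shared percentages of vehicle and 2 h peaks were 88.6% and 88.9% with 15000 peaks, 61.6% and 62.0% with 50000, 65.6% for both with overlap of at least 50% of each peak, and 67.4% and 67.6% when ranked by fold. Median widths were 1385 and 1253 bp with 15000 peaks, 811 and 671 with 50000, and 1001 and 859 by fold, narrower at 2 h each time. By fold, 18 and 13 peaks reached 4000 bp.

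Weaker immediate early genes numbered 1 by fold and 2 with a limit of 2000 places. Weaker G2/M genes numbered 4 by fold and 13 at 2000 places, where 10.4% and 13.98% of all regions were weaker. Stronger G1/S genes numbered 2 by fold and 5 at 2000 places, where 10.8% and 14.3% of all regions were stronger. By fold, 24 of 35 G2/M genes ranked lower and 21 of 24 G1/S genes higher, and by summed −log10 p 31 and 24. These G2/M and G1/S alternatives were added after the data were seen. Of 17 called gene starts that were not chosen for their call by every measure, 8 stayed past the limit by fold and 4 by summed −log10 p, which reversed IER2 to -29 and TP53I3 to -307 places. The cause was not tested. No paired analysis was possible because each group has 1 library. Depth limits the weak peaks: the 2 h library has 0.839 times the background of vehicle, and a peak missing from a list is not shown to be absent from the cells.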
